A study of Homo sapiens with 21 samples.

Results

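The genes examined were 9 in number: the linker histone gene H1FX, the H2A variant genes H2AFJ, H2AFX, H2AFY, H2AFZ and H2AFV, the H3.3 genes H3F3A and H3F3B, and SLBP, which encodes the protein that binds the stem-loop at the end of replication-dependent histone mRNAs. They were chosen by name as histone variant genes whose mRNAs carry a poly(A) tail, with SLBP as the partner of the mRNAs that do not. They are 9 of 58735 genes in the count table, and all 9 were among the 16196 genes with enough counts to be tested. The study sequenced RNA selected with poly(dT) beads from cultures labelled HepG2, which is an established human liver tumour line. The cells spent 6 h in serum-free medium with coumarin at 0 µM, the untreated control, or at 0.001, 0.01, 0.1, 1, 10 or 100 µM. Each of the 7 groups had 3 libraries, which the design text calls biological replicates. Nothing says whether they came from separate cultures, so the p-values measure the spread between these libraries, part of which may be technical. Coumarin is a plant-derived fragrance compound, and all groups share the line and the serum-free medium.

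Histones package DNA into nucleosomes. Most histone protein is made in S phase from the clustered replication-dependent genes, whose mRNAs end in a conserved stem-loop in place of a poly(A) tail. SLBP binds that stem-loop and takes part in the processing, export and translation of those mRNAs. Replacement variants are made throughout the cell cycle from genes outside the clusters, and their mRNAs are polyadenylated like other mRNAs. Variants exchange into chromatin without replication: H3.3 at active genes, H2A.Z around start sites, macroH2A mainly in silent chromatin, and H2A.X as the form that is phosphorylated next to DNA breaks. Linker histones bind the DNA between nucleosomes, and H1FX encodes H1.10, a variant present in most tissues.

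The stem-loop that separates these classes was searched for in the GENCODE 29 transcripts, because it decides which histone mRNAs SLBP binds. The motif, on the transcript strand, was a stem arm GGNNNT of 6 bases, a loop NNTN of 4 bases and a second arm ANNNCC, with all 6 stem positions paired. It was found in 1 of the 9 genes, H2AFX, against 31 of 71 protein-coding genes named HIST (43.7%) and 213 of 58676 genes with a transcript (0.363%). Most HIST genes thus had no match in this strict search, so a miss does not show that a gene lacks a stem-loop. H2AFX is known to make both a stem-loop mRNA and a longer polyadenylated one. Its stem-loop, in transcript H2AFX-202, lies at chr11:119094898-119094913 on the minus strand of GRCh38, inside the annotated gene. It is shown with its flanks beside the sequence most common among the HIST genes, which 17 of those 31 carry on chromosomes 1 and 6. Capitals mark the 16 bases of stem and loop.
H2AFX: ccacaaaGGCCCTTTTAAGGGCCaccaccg
HIST genes: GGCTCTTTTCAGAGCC

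The paired genes of H3.3 and of H2A.Z are near-copies in protein, and reads of a pair can be told apart only where the DNA differs. H3F3A and H3F3B encode the same protein, and their coding sequences of 408 bases were identical at 78.4% of positions, with a longest shared run of 14 bases. H2AFZ and H2AFV encode the closely related H2A.Z.1 and H2A.Z.2, and their 384 coding bases were identical at 80.5%, with a longest shared run of 23. The first 60 coding bases are shown from the GENCODE 29 transcripts, with capitals at the positions that differ within a pair, 13 between the H3.3 genes and 12 between the H2A.Z genes.
H3F3A: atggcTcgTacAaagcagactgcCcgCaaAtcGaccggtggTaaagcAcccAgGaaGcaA
H3F3B: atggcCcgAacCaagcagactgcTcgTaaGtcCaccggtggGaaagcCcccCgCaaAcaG
H2AFZ: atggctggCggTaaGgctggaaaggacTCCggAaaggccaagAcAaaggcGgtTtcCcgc
H2AFV: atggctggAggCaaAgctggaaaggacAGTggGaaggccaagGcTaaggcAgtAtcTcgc

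Promoters from RefSeq, 250 bases before to 50 after a gene's start on GRCh38.p14, were held for all 9 genes, in 13 windows. CCAAT, searched on both strands, occurred 4 times in the windows of H2AFX, H2AFV and H3F3B and 3 times in those of H2AFZ and H2AFJ, while H1FX and SLBP had none. Of all 35116 windows, 0.991% held at least 4 copies, 3.26% at least 3, and 34.6% at least 1. TATAAA, on both strands, occurred once each in H1FX, H2AFX, H2AFZ and H3F3B, and in 11.5% of all windows. The windows of H1FX, which rose at the highest dose, and of H2AFX, which was not called there, are shown because they are the most GC-rich genes of the set by transcript and differ in CCAAT. Capitals mark CCAAT or ATTGG and TATAAA. H1FX lies at chr3:129316237-129316536 and H2AFX at chr11:119095416-119095715, both on the minus strand.
H1FX: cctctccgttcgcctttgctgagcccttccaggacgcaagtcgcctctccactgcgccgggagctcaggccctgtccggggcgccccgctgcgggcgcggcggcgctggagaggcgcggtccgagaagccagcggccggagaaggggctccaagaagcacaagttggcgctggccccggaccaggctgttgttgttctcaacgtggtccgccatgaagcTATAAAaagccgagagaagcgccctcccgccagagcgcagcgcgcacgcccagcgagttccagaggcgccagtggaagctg
H2AFX: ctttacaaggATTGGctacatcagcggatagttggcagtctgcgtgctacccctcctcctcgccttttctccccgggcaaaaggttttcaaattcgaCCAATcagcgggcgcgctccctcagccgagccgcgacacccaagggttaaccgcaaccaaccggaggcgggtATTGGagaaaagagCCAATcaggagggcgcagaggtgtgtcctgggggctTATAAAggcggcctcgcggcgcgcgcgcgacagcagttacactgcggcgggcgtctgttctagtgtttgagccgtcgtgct

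The libraries lacked most of the hepatocyte transcripts listed for the labelled cell type. Of 15 hepatocyte genes, 1 reached 1 CPM (counts scaled to the library's size), the urea cycle enzyme gene CPS1 at 2860 ± 85.3 CPM (SD, n = 21), and ALB, SERPINA1 and FGB had 0 reads in all libraries, so that up to 0.107 CPM remained possible at the lowest depth (3 counts, counting error only). Keratin and collagen genes were mixed. KRT8 stood at 2330 ± 105 CPM, KRT7 at 1210 ± 60.2 CPM and KRT18 at 899 ± 51.2 CPM, while KRT19 had 1 read over all libraries. COL3A1 stood at 937 ± 27.9 CPM and COL1A1 at 60.8 ± 4.77 CPM, while COL1A2 had 1 read. Of the listed genes, 3 of 7 epithelial and 6 of 8 mesenchymal ones reached 1 CPM, VIM at 279 ± 11.8 CPM among the latter. HepG2 is thus used here as the label of the cultures and not as a description of their cells. Summed over the list, the hepatocyte genes ranged from 2780 to 2940 CPM at 100 µM and from 2800 to 2890 CPM at 0 µM; the 7 epithelial genes, with EPCAM at 0 reads, from 4030 to 4150 and from 4210 to 4560 CPM; the 8 mesenchymal genes from 1310 to 1350 and from 1390 to 1410 CPM. The epithelial and mesenchymal sums were thus lower at 100 µM, and their part in the results was not tested. None of the 5 endothelial or 5 blood cell genes reached 1 CPM. Library totals ranged from 27984517 to 43704155 counts, and the 9 genes together took 0.23% to 0.25% of each. In bulk RNA, fewer cells of a type and less RNA per cell cannot be told apart.

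All 9 genes were well expressed, at 1808 counts or more in every library. Levels can be set against each other only per length, here as the authors' FPKM (fragments per kilobase of gene length, scaled to library size), averaged over the 21 libraries. H2AFZ was highest at 247 ± 12.1 FPKM, apart from all others. H3F3A at 106 ± 3.7, H3F3B at 95.4 ± 2.95, H2AFX at 92.7 ± 4.99 and H1FX at 79.6 ± 7.94 FPKM followed, each overlapping the next in its range over libraries down to H1FX. SLBP at 61.4 ± 2.16 and H2AFV at 60.7 ± 1.28 FPKM overlapped each other. H2AFJ at 21.6 ± 1.06 and H2AFY at 12.9 ± 0.381 FPKM stood below, each apart from the rest (SD, n = 21 for each).

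That order depends on the length used. The deposited length of H2AFY, a gene with 20 annotated transcripts, is 17730 bases, while its longest protein-coding transcript has 2789. Per kilobase of the longest protein-coding transcript, H2AFZ stayed first at 567 ± 25 CPM, and H3F3B at 211 ± 5.95 stood above H3F3A at 175 ± 5.47. H2AFJ moved to 110 ± 4.9 and H2AFY to 80.2 ± 2.03 CPM per kilobase, and SLBP was last at 61.3 ± 1.93. The ratio of H3F3B to H3F3A was 0.897 ± 0.0248 by FPKM and 1.2 ± 0.0334 by the other length, so which H3.3 gene had the higher level cannot be read from these values. H2AFZ exceeded H2AFV on both, by 4.07 ± 0.172 times in FPKM and 7.68 ± 0.325 times per kilobase of the longest transcript.

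**Figure D1:**
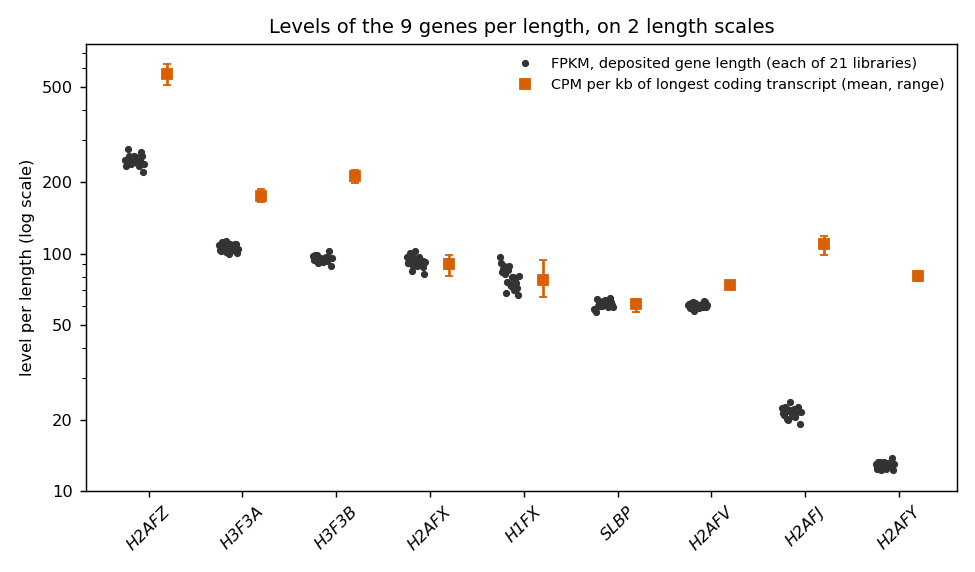
Level per length of the 9 genes on a log axis, ordered by mean FPKM. Points are the FPKM of each of the 21 libraries; squares with bars are the mean and range of CPM per kilobase of the longest protein-coding transcript. H2AFZ is highest on both scales, at 247 FPKM and 567 CPM per kilobase, and H2AFY moves most between them, from 12.9 to 80.2.

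Reads of H3F3A may be shared with processed copies. Of the copies of H3F3B, H3F3BP1 had at most 0.00964% of its sum with H3F3B, and H3F3BP2 had 0 reads. The table held 15 annotated pseudogenes of these genes, 10 with at least 1 read and 3 with enough to be tested. H3F3AP4 on chromosome 2, whose 411 bases match an H3F3A transcript at 100% of positions, had 1602 to 2499 counts per library, or 13.8% to 16.6% of its sum with H3F3A. H3F3AP6 on chromosome 4, identical at 99.3%, had 107 to 174. H2AFVP1 on chromosome 15, identical at 91.1%, had 22 to 69, at most 0.554% of its sum with H2AFV. The level of H3F3A is therefore uncertain, and with pseudogene counts added it was 126 ± 4.14 FPKM. How the authors' counting used strand is not given in the sources used here, so reads of H1FX, H2AFY, H2AFZ, H3F3A and H3F3B cannot be told apart from those of genes overlapping them on the other strand (H1FX-AS1, C5orf66 and AC026691.1, AC097460.1, AL512343.2 and UNK), and H3F3B also holds MIR4738. H2AFJ, H2AFV, H2AFX and SLBP overlap no annotated gene.

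Across doses the question was which of these genes change with coumarin. At 100 µM against 0 µM, 1 of the 9 rose, none fell, and 8 were not called. The linker histone gene H1FX rose; all 5 H2A variant genes, both H3.3 genes and SLBP were not called. Over all tested genes 8.47% were called in this comparison, 3.66% higher and 4.8% lower. The median log2 fold change of the 9 genes was 0.025, beside 0.0025 over all genes, and their median absolute change of 0.053 lay below the 0.11 of all genes. Calls are by edgeR's quasi-likelihood test with Benjamini-Hochberg adjustment over all 16196 genes at 0.05, fitted to all 21 libraries.

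H1FX, at chr3:129314771-129316277 on the minus strand, was the gene that rose. It had 142, 134 and 124 CPM at 100 µM, against 105, 98.8 and 118 CPM at 0 µM. The groups did not overlap, which held upward for 13.1% of all tested genes, but the highest of the other 18 libraries, at 10 µM, reached 131 CPM and so overlapped the 100 µM group. Of all tested genes 2.41% had all 3 libraries at 100 µM above the other 18, and none of the 9 genes did. The means were 133 ± 9.2 CPM at 100 µM and 107 ± 9.84 CPM at 0 µM (SD, n = 3 each), a log2 fold change of 0.31 (SE 0.072, edgeR adjusted p = 0.00522). In order of dose the means were 107 CPM at 0 µM, then 112, 113, 115, 113, 125 and 133 CPM from 0.001 to 100 µM. H1FX varied more between libraries than any of the other 8 genes, with a coefficient of variation of 9.97% in FPKM over the 21 libraries, against 2.12% to 5.38%.

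The part of base composition in the H1FX result was not tested. The slope of log2 counts on GC content differed between libraries, from -0.071 per 10 percentage points in replicate 2 at 0 µM to 0.0591 in replicate 1 at 100 µM, and at 68.6% GC the H1FX transcript is the richest of the set, with H2AFX at 66.4% and the others at 40.5% to 50.7%. With an offset per library for gene length and GC content, an alternative chosen after seeing the data, the H1FX log2 fold change was 0.185 and still called (edgeR adjusted p = 0.0277). Without replicate 1 at 100 µM the H1FX value was 0.271 and not called (edgeR adjusted p = 0.0502).

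**Figure D2:**
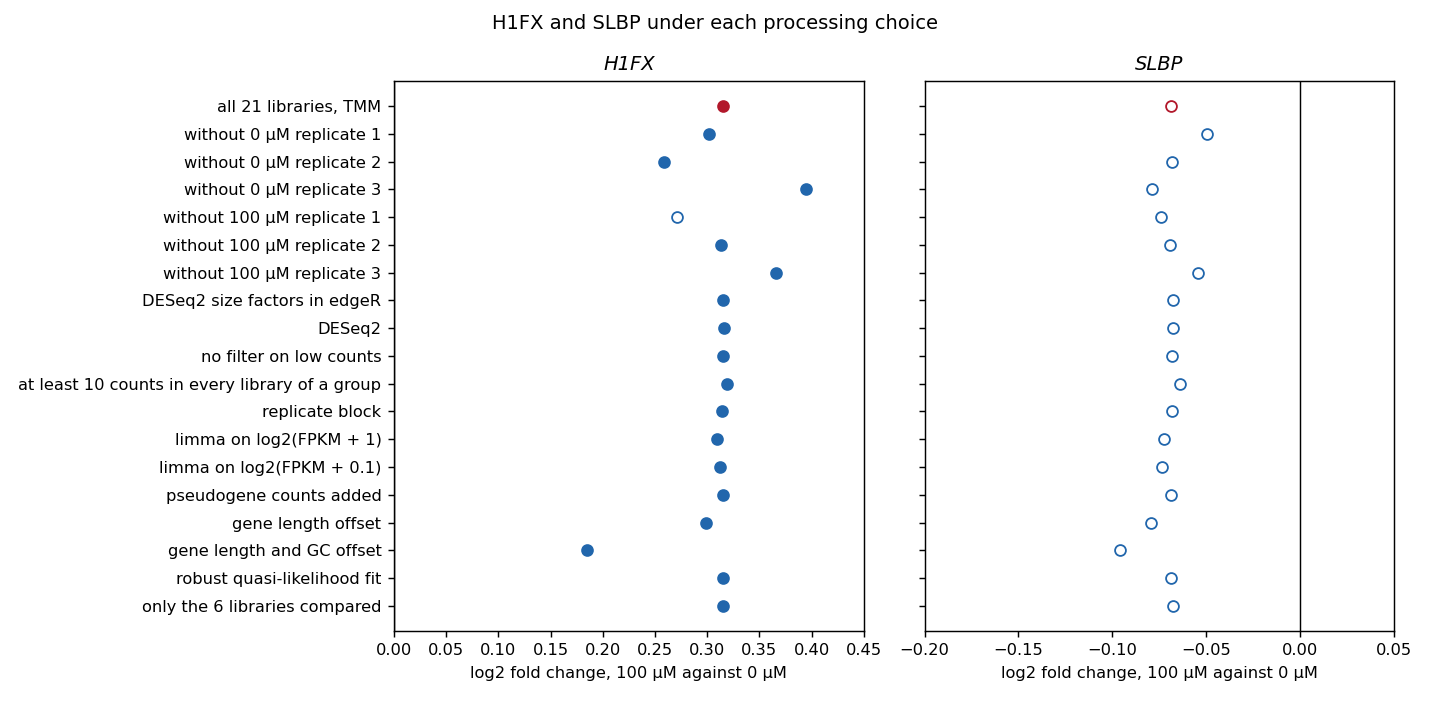
Log2 fold change of H1FX and SLBP at 100 µM against 0 µM in edgeR's fit to all 21 libraries (red) and under each other choice of libraries or processing (blue); the panels have different x ranges, and the vertical line marks 0. Filled points are called at an adjusted p of 0.05; H1FX is called except without replicate 1 at 100 µM, at 0.271, and is lowest, at 0.185, with the offset for gene length and GC content, while SLBP, at -0.096 to -0.0499, is not called.

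The H2A variant genes did not pass the test at 100 µM. H2AFX had 152, 144 and 145 CPM at 100 µM, against 137, 130 and 145 CPM at 0 µM, and the groups overlapped. Its log2 fold change was 0.096 (95% interval -0.0061 to 0.198, edgeR adjusted p = 0.224), and with the GC offset -0.022. H2AFZ had 557, 528 and 549 CPM at 100 µM, against 571, 500 and 535 CPM at 0 µM, with the 100 µM values inside the range of the controls and a log2 fold change of 0.025 (interval -0.072 to 0.12). H2AFV, the other H2A.Z gene, had 283, 285 and 275 CPM at 100 µM against 287, 279 and 280 CPM at 0 µM, and the groups overlapped. The interval of its log2 fold change was -0.074 to 0.064. That of H1FX, 0.161 to 0.468, overlapped the interval of H2AFX and of no other gene of the set.

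H2AFY, which encodes the splice forms of macroH2A1, had 226, 221 and 215 CPM at 100 µM, against 222, 214 and 225 CPM at 0 µM. The groups covered nearly the same range (interval of the log2 fold change -0.071 to 0.076). H2AFJ, the gene of a mammalian H2A variant known to accumulate in senescent human fibroblasts, had 73.3, 70.1 and 68.9 CPM at 100 µM, against 70.5, 63.3 and 70.5 CPM at 0 µM (interval -0.05 to 0.16).

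The H3.3 genes were also not called. H3F3A had 333, 322 and 318 CPM at 100 µM, against 334, 313 and 320 CPM at 0 µM, and the groups overlapped. Its log2 fold change was 0.0096 (95% interval -0.076 to 0.095), and that of its copy H3F3AP4 was -0.062 (edgeR adjusted p = 0.511). H3F3B had 587, 563 and 592 CPM at 100 µM, against 571, 535 and 571 CPM at 0 µM, with a log2 fold change of 0.055 (interval -0.021 to 0.13). The H3F3B to H3F3A ratio of FPKM averaged 0.918 ± 0.0311 at 100 µM and 0.89 ± 0.0216 at 0 µM (SD, n = 3 each), a gap smaller than the larger SD.

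SLBP, at chr4:1692800-1712555 on the minus strand, was the only member with all 3 libraries at 100 µM below the other 18, a pattern shown downward by 3.31% of all tested genes; 13.9% had the 3 libraries at 100 µM below the 3 at 0 µM. It had 116, 116 and 112 CPM at 100 µM, against 122, 121 and 118 CPM at 0 µM, while the other 18 libraries ranged from 118 to 127 CPM. The means were 115 ± 2.03 CPM at 100 µM and 120 ± 2.42 CPM at 0 µM (SD, n = 3 each). The log2 fold change was -0.069 (SE 0.036, 95% interval -0.146 to 0.0086) and was not called by edgeR (adjusted p = 0.253; unadjusted p = 0.0673).

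**Figure D3:**
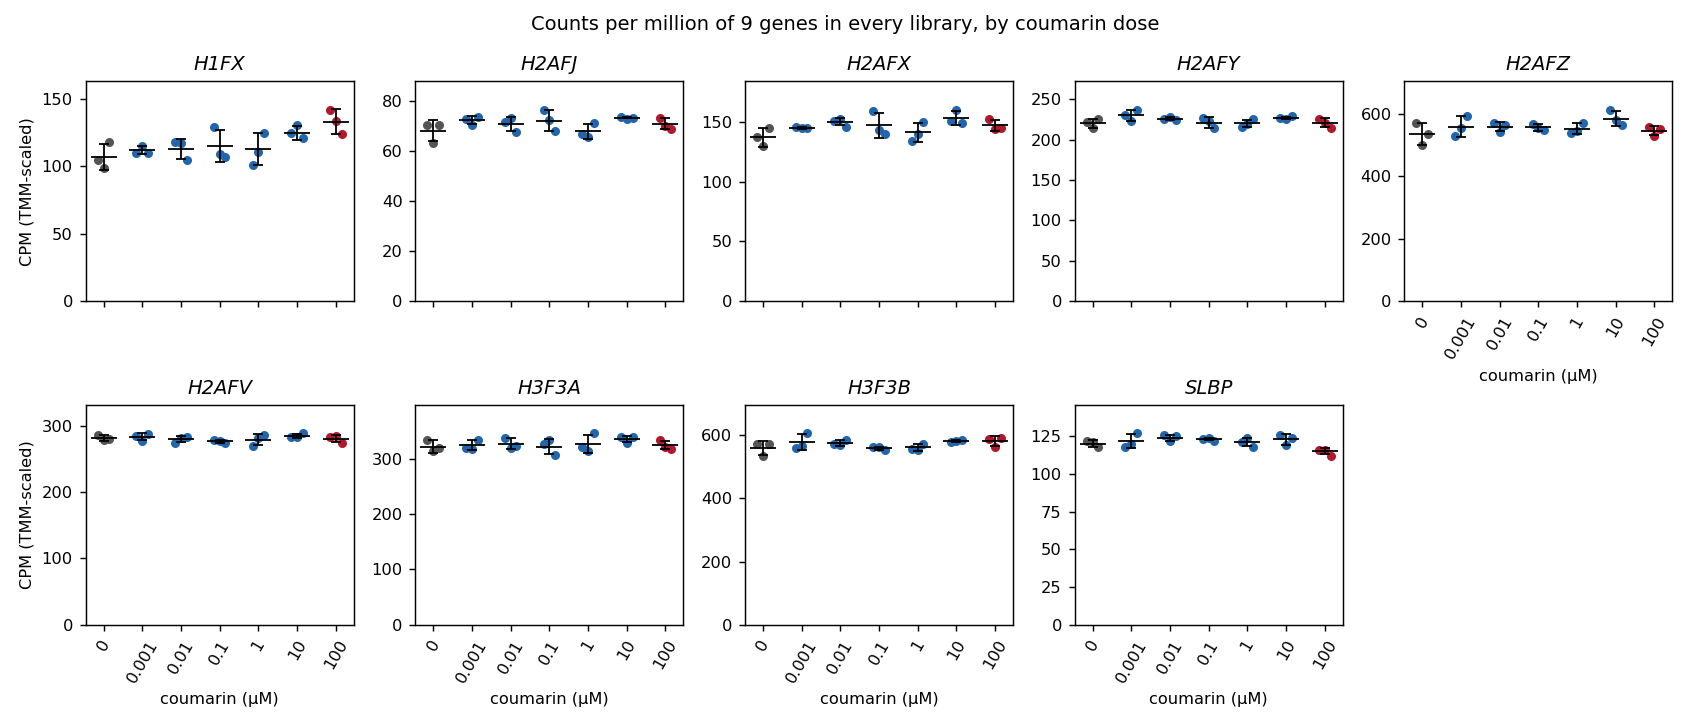
CPM of each gene in every library (points) by coumarin dose, with the mean and SD of the 3 libraries per dose (bars); grey is 0 µM, blue the doses between, red 100 µM, and the y axes start at 0. At 100 µM the points of SLBP, 112 to 116 CPM, lie below all others, and those of H1FX span 124 to 142 CPM.

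At 10 µM against 0 µM none of the 9 genes was called by edgeR, where 0.327% of all tested genes were, 0.241% higher and 0.0864% lower. An unadjusted p under 0.05 was reached by 4, and DESeq2 called none. The share of all tested genes that reached this unadjusted p was not counted, here or in the other comparisons. The 4 were H2AFX, at a log2 fold change of 0.16 (edgeR adjusted p = 0.146), H1FX at 0.22 (0.182), H2AFZ at 0.13 (0.241) and H2AFJ at 0.10 (0.38). H2AFX had 151, 160 and 149 CPM at 10 µM, against 137, 130 and 145 CPM at 0 µM. H2AFZ had 612, 579 and 563 CPM at 10 µM, where the highest control was 571. All 9 fold changes were positive, with a median of 0.058 beside -0.003 over all genes, and at 0.001 µM against the same controls all 9 were positive too, with a median of 0.057. Without a filter on low counts, 2 were called, H1FX and H2AFX, and the share of all genes called so was not counted. At 100 µM the same setting left the H1FX log2 fold change at 0.315 but moved its edgeR adjusted p from 0.00522 to 2.43e-09.

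Replicate 2 at 0 µM was also left out, and its part in that shift was not tested. It was the shallowest library and the lowest of all 21 libraries for 5 of the 9 genes, and the lowest of its group for 8. How many of all tested genes were lowest in that library was not counted. Without it the median at 10 µM was 0.037 with all 9 still positive, at 0.001 µM it was 0.013 with 7 of 9 positive, and at 100 µM it was -0.014 with 4 of 9 positive, against 7 of 9 with it. Every comparison with 0 µM shares these 3 control libraries.

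At 0.001, 0.01, 0.1 and 1 µM against 0 µM, edgeR called none of the 9 genes. Positive fold changes numbered 9, 8, 6 and 6 of 9 in that order of dose, with medians of 0.057, 0.048, 0.032 and 0.0073. Unadjusted p under 0.05 numbered 0 at 0.001 µM, 1 at 0.01 µM, 1 at 0.1 µM and 0 at 1 µM, and both were H2AFX, at log2 fold changes of 0.12 at 0.01 µM and 0.10 at 0.1 µM. Of all tested genes 0% were called at 0.001 µM, 0.00617% at 0.01 µM, 0.00617% at 0.1 µM and 0% at 1 µM. With these 4 doses pooled against 0 µM, none was called either (0.00617% of all genes), and H2AFX was again the gene with an unadjusted p under 0.05 (log2 fold change 0.087, edgeR adjusted p = 0.645). DESeq2 also called none at these doses or in the pool.

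**Figure D4:**
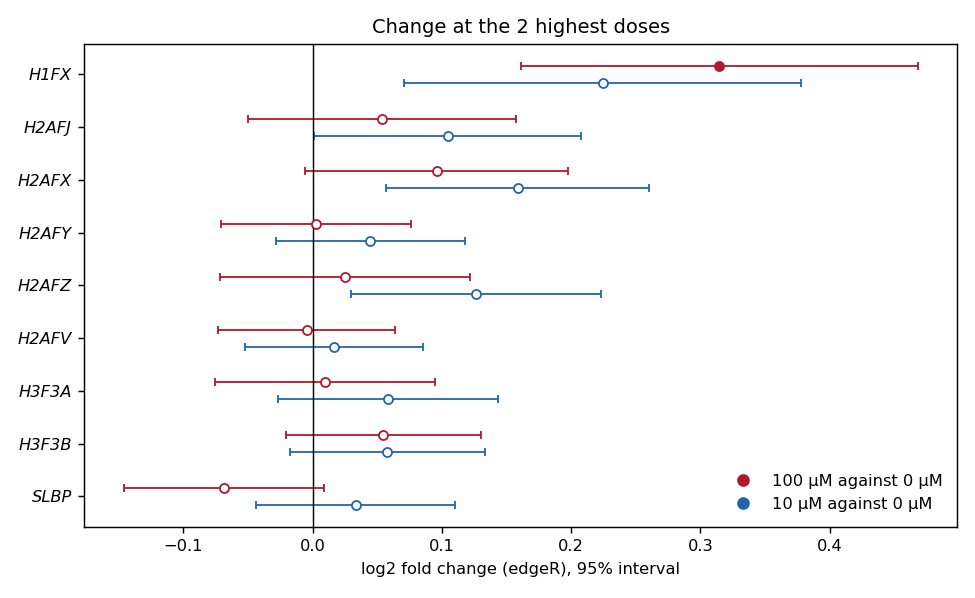
Log2 fold change with its 95% interval from edgeR for the 9 genes at 100 µM (red) and 10 µM (blue) against 0 µM. The filled point is called, which is H1FX at 0.31 at 100 µM; SLBP at 100 µM and H2AFV at 100 µM are the values below 0.

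Setting 100 µM against 10 µM leaves the controls out. None of the 9 genes was called by edgeR or DESeq2, where edgeR called 4.57% of all genes, 2.07% higher and 2.49% lower, and 2 had an unadjusted p under 0.05. These were SLBP, at -0.10 (edgeR adjusted p = 0.105), and H2AFZ, at -0.10 (0.211). H1FX was at 0.090 (edgeR adjusted p = 0.53). With the offset for length and GC, under which edgeR called 1396 of all genes against 740 without it, 2 of the 9 were called, SLBP at -0.15 (adjusted p = 0.0131) and H2AFX at -0.13 (adjusted p = 0.0152).

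The slope over log10 dose among the 6 treated groups was called for H1FX, at 0.049 log2 units per 10-fold dose (SE 0.012, edgeR adjusted p = 0.0157), where 4.45% of all genes were called, 1.94% with a positive and 2.51% with a negative slope. Without replicate 1 at 100 µM the H1FX slope was 0.042 and without replicate 2 it was 0.048, and neither was called by edgeR (adjusted p = 0.0809 and 0.0505). It was also not called with limma or edgeR's robust fit. With the offset for length and GC it was 0.042 and called (edgeR adjusted p = 0.00289). The slope of SLBP was -0.014 (edgeR adjusted p = 0.218). A test over all 7 groups called H1FX (edgeR adjusted p = 0.0456), where 4.35% of all genes were called. H1FX lost that call when any 1 of 16 of the 21 libraries was left out, and also with DESeq2, the replicate block, both limma fits, the gene length offset and edgeR's robust fit. It kept the call with the offset for length and GC.

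In the partner lists edgeR's calls at 100 µM are to be read against the 8.47% of all tested genes that it called, 3.66% higher and 4.8% lower. DESeq2 called more of all genes, 1545 against 1371, and its calls are to be read against that larger number. Of 18 genes for H2A.Z and macroH2A exchange, 1 rose, DMAP1, a subunit of the SRCAP and TIP60 complexes, at 116 ± 3.03 CPM at 100 µM and 103 ± 2.63 CPM at 0 µM (log2 fold change 0.17, edgeR adjusted p = 0.00816). ANP32E, the chaperone that removes H2A.Z, was at -0.13 and not called by edgeR (adjusted p = 0.0526). DESeq2 called 3 of the 18: DMAP1, ANP32E and EP400, the ATPase of the TIP60 complex, at 0.16 in edgeR. Of 18 genes for H3.3 deposition and H3-H4 chaperones, 1 fell, RBBP4, a subunit of the CAF-1 assembly complex, at 150 ± 3.72 CPM at 100 µM and 167 ± 6.06 CPM at 0 µM (-0.15, edgeR adjusted p = 0.00672). Of 8 H2A-H2B chaperone genes none was called by edgeR; 1 had an unadjusted p under 0.05, NPM3, a nucleoplasmin family member (0.17, adjusted p = 0.0754), and DESeq2 called it.

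Of 18 genes listed for the 3′ end processing and decay of histone mRNA, 16 were matched by name, and all 16 were tested. Of these 1 fell: CPSF2, a subunit of the cleavage complex, at 122 ± 2.68 CPM at 100 µM and 141 ± 7.55 CPM at 0 µM (-0.21, edgeR adjusted p = 0.00275). DESeq2 called CPSF2 and also UPF1, a helicase of mRNA decay, at 183 ± 5.45 CPM at 100 µM and 168 ± 8.53 CPM at 0 µM (0.12, not called by edgeR, adjusted p = 0.0707). Of 20 S phase genes 2 fell, where 4.8% of all genes did, CCNA2, which encodes cyclin A2, at -0.18 (edgeR adjusted p = 0.00157) and the replicative helicase gene MCM4 at -0.10 (adjusted p = 0.0297). The medians of these lists lay between -0.041 and 0.049, beside 0.0025 over all genes. An unadjusted edgeR p under 0.05 was reached by 5 of the 18 exchange genes and 4 of the 18 H3.3 and H3-H4 genes. It was also reached by 4 of the 16 processing and decay genes and 5 of the 20 S phase genes. Of 11 other variant histone genes 1 had enough counts to be tested, CENPA, which encodes the centromeric H3 (-0.047, not called).

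The clustered HIST genes gave other values in the same libraries. Of 71 protein-coding genes named HIST, 37 were tested, and 17 rose and none fell at 100 µM, with a median log2 fold change of 0.65, where 3.66% of all tested genes rose. At 10 µM 2 were called, both higher, where 0.241% of all tested genes were. Their mRNAs mostly lack poly(A) tails, and the libraries hold what the poly(dT) beads retained of them. No test of the difference between the 2 sets was made.

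Genes whose log2 CPM followed that of H1FX most closely over the 21 libraries were taken from the 11630 tested genes whose mean log2 CPM reached 1. They were RNF187 (Pearson's r = 0.93), the replication licensing gene CDT1 (0.904) and POM121C (0.902), none of which was called by edgeR at 100 µM, at log2 fold changes of 0.11, 0.16 and 0.14. These values describe 21 libraries that also differ in depth and base composition, and carry no p.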

How the data were processed

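Poly(dT) beads selected the RNA of 21 samples labelled HepG2 before reverse transcription, per the labels' protocols. The authors deposited raw whole-number counts for each gene in each library, and FPKM. The submitters' processing notes name HISAT2, DESeq2 and GRCh38 but give them no role. Which tool counted the reads, whether by strand and on which annotation is not given in the sources used here. All 58735 gene IDs occur in GENCODE 29, 58724 with the same start and end. The deposited FPKM match count over length over a library constant, with a largest relative deviation of 2.18e-08 (genes with at least 100 counts).

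Libraries were grouped by label, 3 per dose. Counts were filtered with filterByExpr, scaled by TMM and fitted in edgeR 4.0.16 (R 4.3.3) with 1 mean per dose over the 21 libraries (quasi-likelihood, 14 residual degrees of freedom). The Benjamini-Hochberg adjustment ran over 16196 genes, with a threshold of 0.05. Standard errors are the absolute fold change over the root of F, and 95% intervals use t with 14 degrees of freedom. CPM are TMM-scaled. Totals of 27984517 to 43704155 counts make 3 counts 0.0686 to 0.107 CPM. No 2 replicates agreed within counting noise (chi-square over degrees of freedom of 2.68 to 12.2 in 21 pairs), so all were kept as separate samples.

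The genes and the gene lists were chosen with earlier results of these data known. One gene of the chosen set is not reported here. Named were all 9 genes, up to 4 genes per list with the smallest p at 100 µM (those called and a few others are printed), pseudogenes with reads, and the 3 genes most correlated with each gene called over the 7 groups. Genes named HIST are given as counts. Alternatives were DESeq2 1.42.0, DESeq2 size factors in edgeR, a replicate block, looser and stricter count filters, limma 3.58.1 on log2(FPKM + 1) and log2(FPKM + 0.1), pseudogene counts added, offsets for gene length, only the 6 libraries compared, and each library left out. Chosen after seeing the data were an offset for length and GC content, edgeR's robust fit, and the length of the longest protein-coding transcript. The tests were first tried on simulated data. Figures were drawn with matplotlib 3.10.9.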

Additional observations from a re-analysis of the deposited data

How the results depend on the processing

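H1FX, the gene called at 100 µM against 0 µM, was called under all 12 other settings, at 0.185 to 0.319. Leaving out each library, 0 to 1 of the 9 genes was called, and H1FX ranged from 0.259 to 0.395. Over all genes 1371 were called, 1211 to 1545 under the other settings, and 681 to 1588 without 1 library (681 without replicate 1 and 878 without replicate 3 at 100 µM, 787 without replicate 1 and 761 without replicate 2 at 0 µM). At 10 µM no filter gave 2 calls against 0. At 100 µM against 10 µM, the length and GC offset gave 2 calls against 0. For the slope, limma and the robust fit gave 0 against 1, and leaving out a library gave 0 to 1. Over the 7 groups limma, DESeq2, the length offset, the robust fit and the replicate block gave 0 against 1, and leaving out a library 0 to 1. At the doses of 1 µM and below, no setting gave a call. With the length and GC offset, 131 genes of all were called at 10 µM against 53 without it, and 1396 at 100 µM against 10 µM, compared with 740. The cause of these changes was not tested.

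Uncalled values changed sign, none of them with a call. Most lay near 0, but that of H2AFX at 100 µM was 0.0958 in edgeR's fit to all 21 libraries. At 100 µM these were H2AFV at 0.000356 (length offset) and 0.0223 (length and GC offset), H2AFX at -0.0222 (length and GC offset), H2AFY at -0.0024 and -0.00256 (limma) and H3F3A at -0.000656 (pseudogenes added). Without 1 library H2AFV ranged from -0.0148 to 0.0128, H2AFY from -0.0194 to 0.0231, H2AFZ from -0.0238 to 0.0793 and H3F3A from -0.0137 to 0.0415. Slopes that did so were those of H2AFV at -0.00107 (no filter), -0.000363 and -0.000369 (limma), H2AFX at -0.00105 (length and GC offset) and H2AFZ at -0.00147 (no filter), -0.000535 and -0.000537 (limma). Without 1 library the slopes ranged from -0.00581 to 0.000297 for H2AFJ, from -0.00178 to 0.00269 for H2AFV, from -0.00551 to 0.00642 for H2AFZ and from -6.82e-05 to 0.00804 for H3F3B.

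The replicate numbers did not pair the libraries: of 63 same-number pairs 0 had deviations correlated over 0.1, and 5 of 21 libraries correlated best with their own number. With the replicate block the 9 genes had 1 call at 100 µM and 0 over the 7 groups. These values are limited by 3 libraries per dose and by a strand and counting tool that the sources used here do not give. They are also limited by 1 cell line, in which only 1 of the 15 hepatocyte genes listed reached 1 CPM.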
